A study of Mus musculus with 14 samples.

Results

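The genes described here encode the proteins of the cytosolic ribosome, measured in brain RNA of mice produced with haploid embryonic stem cells that lacked imprinting control regions, and of wild-type mice. Members were all genes whose symbol is Rpl or Rps followed by a number with at most 1 further letter, together with Rplp0, Rplp1, Rplp2 and Rpsa, and that reached 1 FPKM in at least 2 of the 14 libraries. FPKM is a fragment count per length of transcript, set relative to all fragments of the same library. Of 23375 genes in the table, 80 symbols matched and 77 passed the level, 46 of the large subunit (Rpl and Rplp) and 31 of the small subunit (Rps and Rpsa). The 3 left out, Rpl10l, Rpl39l and Rpl3l, are paralogs that stayed below 1 FPKM in every library. The rule used no difference between groups.

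The series holds 7 groups of 2 poly(A) RNA-seq libraries each. Adult KO3 brain lacked 3 differentially methylated regions (H19-DMR, IG-DMR and Rasgrf1-DMR), and adult KO2 and E19.5 KO2 brain lacked the H19-DMR and IG-DMR. E19.5 KO7 brain lacked 7 regions (DMRs at Gnas, Nespas, Peg3, Snrpn, Grb10, Kcnq1 and Igf2r). Wild-type brain came at both stages, E19.5 being late gestation, and the sample titles divide the adult wild type into set 1 and set 2. The labels give no strain, no adult age and no statement that replicates are separate animals, so p-values measure the spread between these libraries, which may be technical. As background that the labels leave out, this study is known to have used KO2 and KO3 for embryos with 2 maternal genomes and KO7 for embryos with 2 paternal genomes, so a group's deletions cannot be told apart from the parental origin of its genomes. The deletions remove control regions of imprinted genes and no ribosomal protein gene.

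A ribosome joins a small subunit, which reads the mRNA, to a large subunit, which forms peptide bonds, and most of these proteins are needed in about equal number. Their mRNAs are among the most abundant of any cell, and most begin with a tract of pyrimidines at the cap, the terminal oligopyrimidine tract, through which mTORC1 and LARP1 control their translation in mammals. Ribosome production is high in dividing progenitors of the developing brain. mRNA abundance, which was measured here, reports neither translation nor ribosome number.

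The tract can be looked for in the sequence at the annotated transcription start. Below are 30 bases of the mouse genome around the RefSeq start (build GRCm38.p6), 10 before it and 20 from it, read on the gene's strand. Capitals mark runs of at least 8 consecutive bases that are C or T. The first 4 genes were lower in adult than in E19.5 wild type and hold a run; the last 3, which hold none, had the largest fall with stage (Rplp0), the largest rise in KO7 (Rpl37) and a higher level in adult wild type (Rps21, which has a further annotated start).
Rps26 (chr10:128626487-128626516, minus strand): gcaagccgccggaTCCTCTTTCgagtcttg
Rpl15 (chr14:18270967-18270996, minus strand): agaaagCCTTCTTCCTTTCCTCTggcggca
Rpl35 (chr2:39005112-39005141, minus strand): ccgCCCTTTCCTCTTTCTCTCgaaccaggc
Rps6 (chr4:86857348-86857377, minus strand): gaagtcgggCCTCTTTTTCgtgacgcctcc
Rplp0 (chr5:115559457-115559486, plus strand): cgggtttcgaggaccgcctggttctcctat
Rpl37 (chr15:5116603-5116632, plus strand): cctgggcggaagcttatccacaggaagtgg
Rps21 (chr2:180257369-180257398, plus strand): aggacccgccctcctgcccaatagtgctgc

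Of the 77 members, 57 were matched by symbol in the RefSeq table, with 68 start windows. In 50 bases around the start (20 before and 30 from it), 34 of the 68 windows (50%) held such a run on the gene's strand, against 6226 of 32851 windows (19.0%) of all genes in the table. On the other strand the shares were 8.82% of members' windows and 21.9% of all windows. The runs are a description of these windows, and a window without one shows only that the letters are not at the annotated start. Members with a run on the gene's strand and members without one are given side by side: between adult and E19.5 wild type 19 of 33 and 14 of 24 were lower, with medians of -0.70 and -0.76 on the log2 scale, and between adult and E19.5 KO2 20 of 33 and 14 of 24 were lower, with medians of -0.78 and -0.73.

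Ribosomal protein transcripts were among the most abundant in every library. The median member averaged 517 FPKM over the 14 libraries, 13 members averaged at least 1000 FPKM and 70 at least 100. With microRNA and small nucleolar RNA genes left out, Rpl41 and Rpl38 had the highest mean of all genes in the table. Rpl41, which encodes the smallest ribosomal protein, averaged 4568 FPKM and ranged from 650.3 to 10646 over libraries. Rpl38, a large subunit protein whose loss in mice alters translation of Hox mRNAs, averaged 4551 FPKM and ranged from 1318 to 8913. Rps26, at 2389 FPKM, Rplp1, at 2281, and Rps21, at 2025, came next, so that members of both subunits and of the stalk were at the top.

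At the low end, 7 members averaged below 100 FPKM, among them the paralog Rps27l. Rps27 averaged 11.6 FPKM, Rpl26 14.7, Rpl34 45.4, Rps15a 49.9 and Rpl30 50.4. Rpl34 had 17.3 and 264 FPKM in adult KO3 and 114 and 15.8 FPKM in adult wild-type set 2, while its copy Rpl34-ps1 had 546 and 1077 FPKM in adult KO3 and 290.1 and 498 FPKM in set 2. Rpl34-ps1 was the higher of the pair in all 14 libraries, and Rpl34 is uncertain, since counting can split reads between near-identical copies. Rpl29, a large subunit protein, had 204 and 4.76 FPKM in adult KO3, and Rpl26 was listed at 12.6 and 0.000169 FPKM in set 2, wider gaps than in any other group. In all, 11 members have a near copy by symbol (a final l or a pseudogene ending) with its own entry in the table, and sequences were not compared. Among these copies, Rpl10l, Rpl39l and Rpl3l stayed below 1 FPKM in every library.

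The paralog Rps27l, known in human cells as a target of p53, averaged 71.7 FPKM, with 6 members below it. It had 40.6 and 102 FPKM in adult KO3, 16.6 and 20.3 in set 2, 70.0 and 73.7 in adult KO2 and 40.2 and 54.3 in set 1. At E19.5 it had 120.3 and 116 FPKM in KO2, 98.0 and 71.0 in KO7 and 89.9 and 91.8 in wild type. It was above Rps27 itself in every library.

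Together the 77 genes took 5.30% to 19.2% of the summed FPKM, depending on the library. At E19.5 the share was 15.4% and 16.8% in KO2, 19.2% and 16.9% in KO7, and 15.9% and 14.5% in wild type. In adult brain it was 10.6% and 11.1% in KO2 and 10.99% and 10.9% in wild-type set 1. The 4 remaining adult libraries stood apart: adult KO3 had 8.71% and 13.3%, against 5.30% and 6.28% in set 2. The lowest E19.5 library was thus above the highest adult library, KO3 replicate 2 included. This order holds with microRNA and small nucleolar RNA genes left out of the sum, and not for E19.5 KO2 with all listed genes in it. Large subunit members held 3.22% to 11.7% of the sum and small subunit members 2.08% to 7.46%, and both were lowest in set 2 replicate 1 and highest in KO7 replicate 1.

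**Figure D1:**
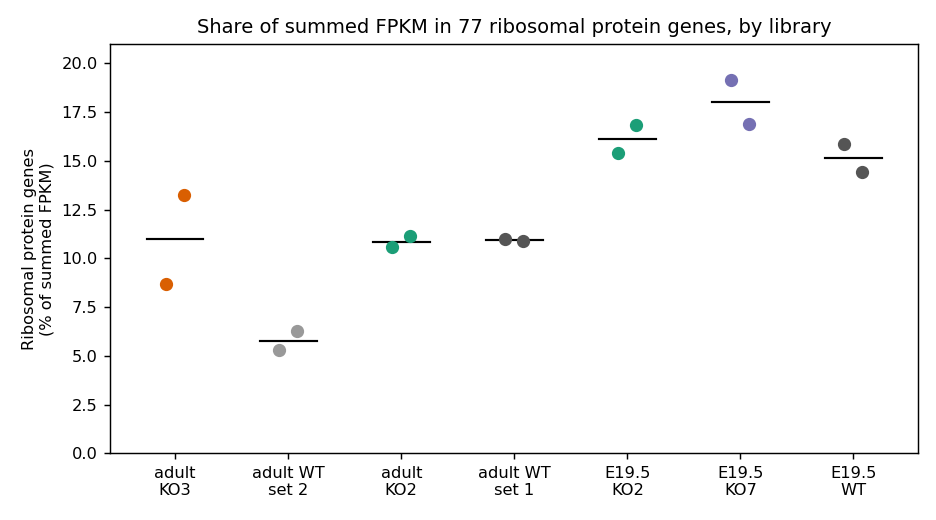
Share of summed FPKM (percent, vertical axis; microRNA and small nucleolar RNA genes left out) in the 77 ribosomal protein genes for each library, with a line at each group's mean of 2 libraries. E19.5 libraries lie between 14.5% and 19.2%, adult KO2 and set 1 libraries between 10.6% and 11.1%, and set 2 libraries at 5.30% and 6.28%.

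In the deposited table, low values of the 4 adult KO3 and set 2 libraries are treated unlike those of the remaining 10: 9994 genes are listed at 0 in all 4, of which 6396 are above 0 elsewhere. KO3 was therefore compared with set 2, and KO2 with set 1. Adult KO3 replicate 2 was above replicate 1 in 76 of the 77 members, with a median log2 difference of 0.84, against a median of -0.05 over all tested genes. Between E19.5 KO7 replicates the order was as uniform, replicate 2 being above replicate 1 in 1 of 77 members, with a median of -0.33. In the other 5 groups replicate 2 was the higher in 8 to 68 of 77 members, with medians from -0.20 to 0.16. None of 7 neuron markers was at 0 in any library, and they summed to 1870 to 3543 FPKM.

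**Figure D2:**
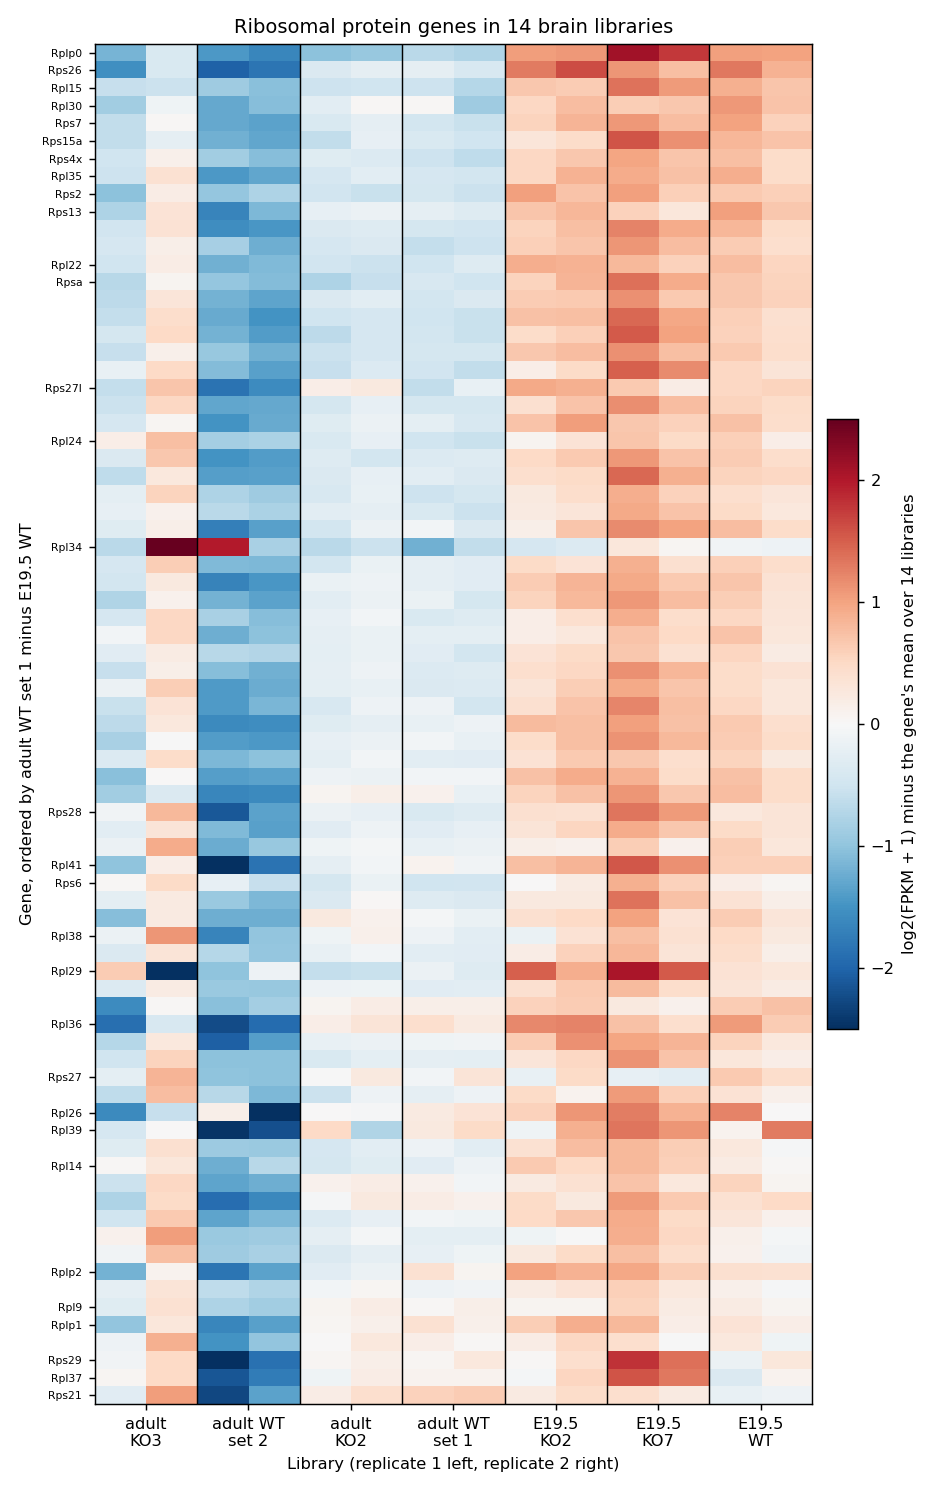
Each row is 1 ribosomal protein gene and each column 1 library; colour gives log2(FPKM + 1) minus the gene's mean over the 14 libraries, and rows are ordered by the change between adult set 1 and E19.5 wild type, with labels on a selection of genes named in the text. Nearly all rows are above their mean at E19.5 and lowest in set 2; Rpl34, Rpl29, Rpl26 and Rpl39 show single libraries that depart from the rest.

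Between adult and E19.5 wild type (set 1 against E19.5, libraries whose low values are listed alike), ribosomal protein transcripts were lower in the adult. Whether the libraries of the 2 stages were otherwise handled alike is not known. Of 77 members, 43 were lower and 0 higher (limma, Benjamini-Hochberg adjusted p under 0.05), where 34.1% of all tested genes were lower and 21.9% higher, 56% in all. In total 72 members lay below 0, and 46 were lower and 0 higher at an unadjusted p under 0.05. The median change of the members was -0.69 on the log2(FPKM + 1) scale, against -0.15 for all tested genes. Libraries did not overlap between stages, adult below E19.5, in 67 members, against 49.9% of all genes.

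The largest fall was that of Rplp0, which carries the stalk where elongation factors dock. It had 217 and 205 FPKM in adult set 1, against 701 and 694 FPKM in E19.5 wild type. Replicates lay close together and the stages far apart (log2 change -1.72 ± 0.22 SE, limma adjusted p = 6.58e-05). Rps26, a small subunit protein at the mRNA exit channel, had 1534 and 1370.1 FPKM in adult set 1 and 4478 and 3271 FPKM in E19.5 wild type (log2 change -1.40 ± 0.36, limma adjusted p = 0.0062). Rpl15, a large subunit protein, had 103 and 89.4 FPKM in adult set 1 and 272 and 236 FPKM in E19.5 wild type (log2 change -1.40 ± 0.14, limma adjusted p = 9.28e-06). Both were lower in the adult with no overlap. The next 7 by size were Rpl30 (-1.33), Rps7 (-1.29), Rps15a (-1.22), Rps4x (-1.18), Rpl35 (-1.12), Rps2 (-1.12) and Rps13 (-1.11), from both subunits. Rps6, whose protein is phosphorylated by S6 kinases downstream of mTORC1, had 199.6 and 201 FPKM in adult set 1 and 314 and 291 FPKM in E19.5 wild type. It also fell (log2 change -0.59 ± 0.20, limma adjusted p = 0.025).

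A few members did not follow. Rps21, a small subunit protein, had 2659 and 2795 FPKM in adult set 1, against 1569.7 and 1642 FPKM in E19.5 wild type. The adult libraries were the higher without overlap, but the change missed the threshold (log2 change 0.76 ± 0.41, limma adjusted p = 0.135). With the 4 KO3 and set 2 libraries left out of the fit, the same change passed (limma adjusted p = 0.0059). Rpl9, a large subunit protein, had 599.8 and 647 FPKM in adult set 1 and 677 and 612 FPKM in E19.5 wild type, so the stages overlapped. Rpl37, a zinc finger protein of the large subunit, had 434 and 433 FPKM in adult set 1 and 316 and 433 FPKM in E19.5 wild type (log2 change 0.23 ± 0.26, limma adjusted p = 0.466).

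KO2 brain gave a stage comparison whose groups share no library with those of the wild-type one. Both comparisons take each gene's error from the same fit of 14 libraries, so their calls are not independent. Between adult and E19.5 KO2, 44 members were lower and 0 higher, where 28.6% of all tested genes were lower and 20.7% higher, 49.3% in all (limma). In total 76 members lay below 0, and the median change was -0.73, against -0.09 for all tested genes. Rplp0 had 169 and 178 FPKM in adult KO2, against 715 and 733 FPKM in E19.5 KO2 (log2 change -2.06 ± 0.22, limma adjusted p = 2.5e-05). Rps26 had 1392 and 1532 FPKM in adult KO2 and 4452 and 5543 FPKM in E19.5 KO2 (log2 change -1.77 ± 0.36, limma adjusted p = 0.00187). Rplp0, Rps26, Rpl15 and Rps2 are among the 10 largest falls past the threshold in both comparisons. Others in KO2 were Rpl22 (-1.40), Rps2 (-1.38), Rpsa (-1.37), Rpl7a (-1.21), Rpl15 (-1.16), Rplp2 (-1.15) and Rpl23 (-1.10). Rpl9 again overlapped between stages, with 615 and 671 FPKM in adult KO2 and 616 and 617 FPKM in E19.5 KO2 (log2 change 0.06 ± 0.23, limma adjusted p = 0.849).

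Members lower in both stage comparisons numbered 36, 20 of the large and 16 of the small subunit. They made up 81.8% of those lower in KO2 and 83.7% of those lower in wild type, where the shares over all tested genes were 82.5% and 69.3%. Across the 77 members the changes had a Pearson r of 0.63, against 0.88 across all 14322 tested genes, as a description over genes that share libraries. The test of the difference itself (KO2 stage change minus wild-type stage change) called 0 members, with 0.0349% of all tested genes higher and 0.0279% lower, 0.0628% in all (limma; 5 and 4 genes, against 3 and 5 under median-of-ratios scaling). At an unadjusted p under 0.05 it called 1 member, Rpl14, a large subunit protein with a log2 change of -0.95 in KO2 and -0.32 in wild type (interaction -0.63 ± 0.27, limma unadjusted p = 0.0378, adjusted p = 0.311). Rpl14 had 203 and 223 FPKM in adult KO2 and 437 and 391 FPKM in E19.5 KO2, against 225 and 252 FPKM in adult set 1 and 317 and 281 FPKM in E19.5 wild type.

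**Figure D3:**
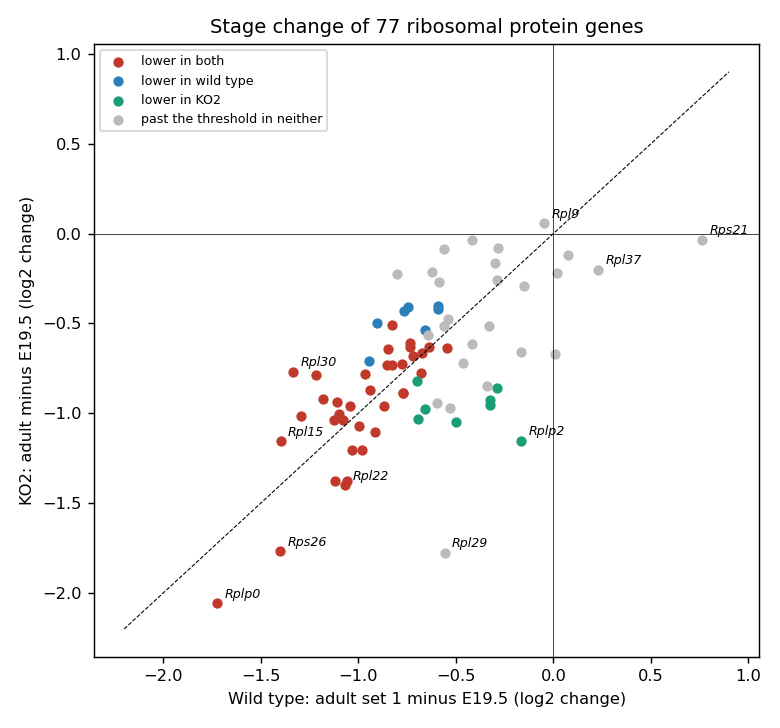
Each point is 1 ribosomal protein gene; the horizontal axis is its log2 change between adult set 1 and E19.5 wild type, the vertical axis that between adult and E19.5 KO2, and colours give the stage comparisons in which it passed the threshold. Most points lie below 0 on both axes; Rplp0 is lowest on both, and Rps21, Rpl37 and Rpl9 lie near the upper right.

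The counts of lower members moved with the libraries in the fit. Leaving out 1 library of the groups compared gave 17 to 30 lower members in wild type, the lowest without E19.5 wild type replicate 1, with 27 without set 1 replicate 1 and 24 without set 1 replicate 2. In KO2 it gave 15 to 30, the lowest without adult KO2 replicate 1, with 23 without adult KO2 replicate 2 and 16 without E19.5 KO2 replicate 2. Leaving out the 4 KO3 and set 2 libraries gave 56 lower members in wild type, where 38.8% of all tested genes were lower, and 58 in KO2, where 33.8% were. The members' median stayed below 0 under every scaling, from -0.69 to -0.54 in wild type and from -0.73 to -0.51 in KO2, while median-of-ratios scaling gave 24 lower members in wild type and 29 in KO2. Scaled to equal sums, 3162 of all tested genes were higher and 2834 lower in adult KO2 against E19.5 KO2, where the values as deposited gave 2963 higher and 4099 lower.

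Other translation genes are read against the 34.1% (wild type) and 28.6% (KO2) of all tested genes that were lower in the adult. Of 35 initiation factor genes 26 (74.3%) were lower and 0 higher in wild type, and 16 (45.7%) and 0 in KO2. The largest fall was that of Eif4g2 in wild type (log2 change -1.67), a factor of cap-independent initiation, and of Eif3l in KO2 (-1.24), a subunit of the scaffold that binds the small subunit. Of 42 ribosome biogenesis genes 33 (78.6%) were lower and 1 higher in wild type, and 17 (40.5%) and 1 in KO2. The nucleolar helicase gene Ddx21 had the largest fall in wild type (-1.48), and Fbl, the rRNA methyltransferase fibrillarin, in KO2 (-0.99). Sbds, which acts in late large subunit maturation, was the 1 that rose, by 1.14 in wild type and by 1.12 in KO2.

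Among 8 elongation and termination genes, a pair of paralogs moved in opposite directions. Eef1a1, the widely expressed form of the factor that delivers aminoacyl-tRNA, had 1223 and 1282 FPKM in adult set 1 and 3084 and 2776 FPKM in E19.5 wild type. Eef1a2, the form of mature neurons and muscle, had 523 and 465 FPKM in adult set 1 and 130.1 and 139 FPKM in E19.5 wild type. Eef1a1 fell in both stage comparisons (log2 change -1.22 in wild type and -1.28 in KO2, limma adjusted p = 0.00091 and 0.000883), and Eef1a2 rose in both (1.86 and 1.30, limma adjusted p = 1.57e-06 and 2.94e-05). In all, 6 of the 8 genes were lower and 1 higher in wild type, and 4 and 1 in KO2. Of 18 further genes whose mRNAs carry the pyrimidine tract, some of which also stand on those lists, 14 were lower in wild type and 13 in KO2, with none higher. Hnrnpa1, an RNA-binding protein gene, fell most (-1.48 in wild type and -1.93 in KO2).

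Of 7 genes of ribosomal proteins or their partners outside the symbol rule, 2 were lower in each stage comparison, 28.6% of the list and no larger a share than of all tested genes, with none higher, and Gnb2l1, which encodes the small subunit scaffold protein RACK1, fell most (-1.25 in wild type and -1.47 in KO2). Of 15 genes that govern growth and translation, 8 (53.3%) were lower and 0 higher in wild type and 5 (33.3%) and 1 in KO2. Myc, a transcription factor that activates ribosomal genes, fell most in both (-2.55 and -2.38), and Rheb, an activator of mTORC1, was the 1 that rose in KO2 (0.33), while it fell in wild type (-0.40). The test of the difference between the stage changes called 0 of these 15 genes, Rheb included. The 76 mitochondrial ribosome genes were mostly not called: 12 were lower and 5 higher in wild type, and 7 and 4 in KO2, with medians of -0.06 and 0.00. The extremes were Mrpl33 (-0.93) and Mrps12 (0.93) in wild type, and Mrpl52 (-0.91) and Mrps14 (1.04) in KO2.

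Cell type markers moved with stage. The 7 cell division markers, such as Mki67 and Top2a, summed to 0.358 to 5.22 FPKM in the 8 adult libraries and to 25.01 to 49.9 FPKM in the 6 E19.5 libraries, and all 7 were lower in both stage comparisons. In the adult KO3 and set 2 libraries 6 of the 7 are listed at 0. Neural progenitor markers summed to 61.7 to 99.5 FPKM in adult and to 345 to 513 FPKM in E19.5 libraries, with 6 of 7 lower in both. Oligodendrocyte markers such as Mbp summed to 1700 to 3164 FPKM in adult and to 40.1 to 177 FPKM in E19.5 libraries, and all 7 were higher in both. The part of these cell types in the ribosomal protein values was not tested. In bulk tissue, fewer cells of a type and less RNA per cell cannot be told apart.

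**Figure D4:**
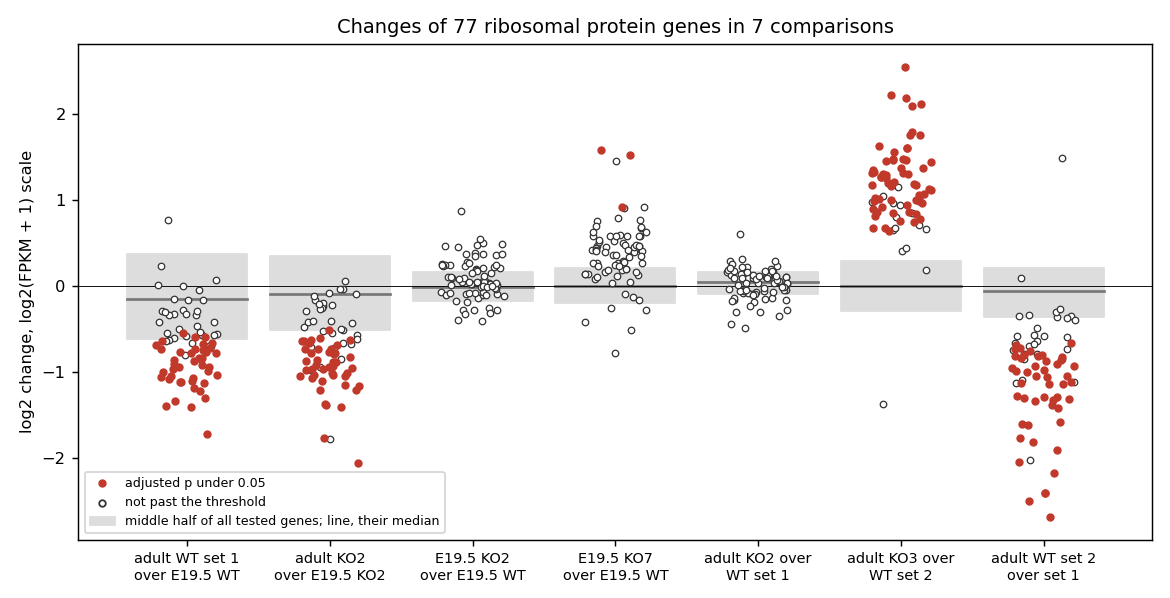
Log2 change of each ribosomal protein gene (1 point) in 7 comparisons, on the log2(FPKM + 1) scale; filled points passed the threshold, and the grey boxes with a line give the middle range and the median of all tested genes. Of the 77 members, 46 lie below the box in the wild-type stage comparison, 56 in that of KO2 and 70 in set 2 over set 1, and 75 lie above the box in KO3 over set 2.

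At E19.5, no difference between KO2 and wild type was detectable in these genes. Of 77 members 0 were called in limma, where 0.88% of all tested genes were higher and 0.398% lower, 1.28% in all. At an unadjusted p under 0.05 there were 1 higher (Rpl14, 0.47) and 1 lower (Rps15a, -0.40), named after their values were seen. The median change was 0.05 (-0.07 under quantile scaling), against -0.01 for all tested genes, and single members ranged from -0.40 (Rps15a) to 0.87 (Rpl29). KO2 lay above wild type without overlap in 23 members and below it in 7, against 27.3% and 29.9% of all tested genes. Rplp0, which had 715 and 733 FPKM in KO2 and 701 and 694 FPKM in wild type, shows how close the groups lay. Without the 4 KO3 and set 2 libraries in the fit, Rpl29 was called higher in KO2 (367 and 247 FPKM in KO2, 168 and 159 FPKM in wild type), where 2.3% of all tested genes were higher and 1.83% lower.

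E19.5 KO7 brain lay above E19.5 wild type in most members, of which 3 passed the threshold. Rpl37, Rps29 and Rplp0 were higher and 0 lower in limma, 3.9% of the members, where 3.02% of all tested genes were higher and 1.43% lower, 4.45% in all. In total 69 of 77 members lay above 0, with a median of 0.40 against 0.00 for all tested genes, and 20 were higher and 1 lower at an unadjusted p under 0.05. Libraries did not overlap, KO7 above wild type, in 44 members, against 30.7% of all tested genes, and KO7 below wild type in 4, against 29.6%.

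Rpl37 had 1217 and 1010.1 FPKM in KO7, against 316 and 433 FPKM in wild type (log2 change 1.58 ± 0.26, limma adjusted p = 0.00828). Rps29, a zinc finger protein of the small subunit, had 4278 and 3199 FPKM in KO7 and 1109 and 1502 FPKM in wild type (log2 change 1.52 ± 0.34, limma adjusted p = 0.0332). Both KO7 libraries were above every other library of the series for these genes. Rplp0 had 1486 and 1179 FPKM in KO7 and 701 and 694 FPKM in wild type (log2 change 0.92 ± 0.22, limma adjusted p = 0.0438). Rpl37 and Rps29 passed the threshold in neither stage comparison, while Rplp0 had the largest fall in both.

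Changes between KO7 and wild type in the remaining members were mostly smaller, and none passed the threshold. Rpl29 was an exception in size, with 537 and 378 FPKM in KO7 and 168 and 159 FPKM in wild type, without overlap. Its error was wide (log2 change 1.46 ± 1.12, limma adjusted p = 0.484). With the 4 KO3 and set 2 libraries left out of the fit, Rpl29 passed (limma adjusted p = 0.00595). Rpl41 had 10646 and 8117 FPKM in KO7 and 5539.7 and 5482 FPKM in wild type, without overlap (log2 change 0.75 ± 0.41, limma adjusted p = 0.315). Rps27 lay lowest, with 9.28 and 8.80 FPKM in KO7 and 17.5 and 14.9 FPKM in wild type (log2 change -0.77 ± 0.30, limma adjusted p = 0.174). KO7 replicate 1 was above both wild-type libraries in 69 members and replicate 2 in 44. For E19.5 KO2 these numbers were 24 in replicate 1 and 44 in replicate 2, so KO7 replicate 2 matched a KO2 library by this count.

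The KO7 count depended on which libraries set the error. Leaving out 1 library of the groups compared gave 0 members without KO7 replicate 1 or without wild type replicate 1, 1 without wild type replicate 2 and 2 without KO7 replicate 2. Leaving adult KO3 replicate 2, which belongs to neither group, out of the fit gave 18 members higher and 2 lower, as did leaving out all 4 KO3 and set 2 libraries, where 6.74% of all tested genes were higher and 5.1% lower. The 2 lower members in that fit of 10 libraries were Rps23 (-0.51) and Rps27 (-0.77). Scaled to equal sums, 162 of all tested genes were higher and 158 lower in KO7, where the values as deposited gave 432 higher and 205 lower. That scaling moved the median of all genes to -0.12 and that of the members to 0.25.

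Some lists of markers of other cells were higher in KO7 than in wild type, where 3.02% of all tested genes were higher. Erythroid markers (8 in the table, globin genes among them) summed to 3480.4 and 3156 FPKM in KO7 and to 199 and 673 FPKM in wild type, and 4 of the 7 tested were higher. Meningeal fibroblast markers summed to 162 and 144 FPKM in KO7 and to 50.1 and 69.5 FPKM in wild type, with 5 of 5 higher. Cell division markers summed to 43.2 and 49.9 FPKM in KO7 and to 25.01 and 25.9 FPKM in wild type, with 6 of 7 higher. At E19.5, no marker of these lists was at 0 in a KO7 library. Endothelial markers summed to 122 and 111 FPKM in KO7 and to 64.9 and 69.4 FPKM in wild type. All 5 lay above 0 (median 0.73) and 2 were higher. Other lists differed less or went the other way. Of 7 astrocyte and 7 oligodendrocyte markers 5 each lay below 0, with medians of -0.17 and -0.18, though 1 astrocyte marker was higher. Of 6 microglia markers 3 lay below 0. Of 5 choroid plexus markers 4 lay above 0 (median 0.49), with 0 called. In E19.5 KO2 against wild type, 7 of 7 erythroid markers lay above 0 and 2 were higher, where 0.88% of all tested genes were. The part of any of these markers in the ribosomal protein values was not tested.

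**Figure D5:**
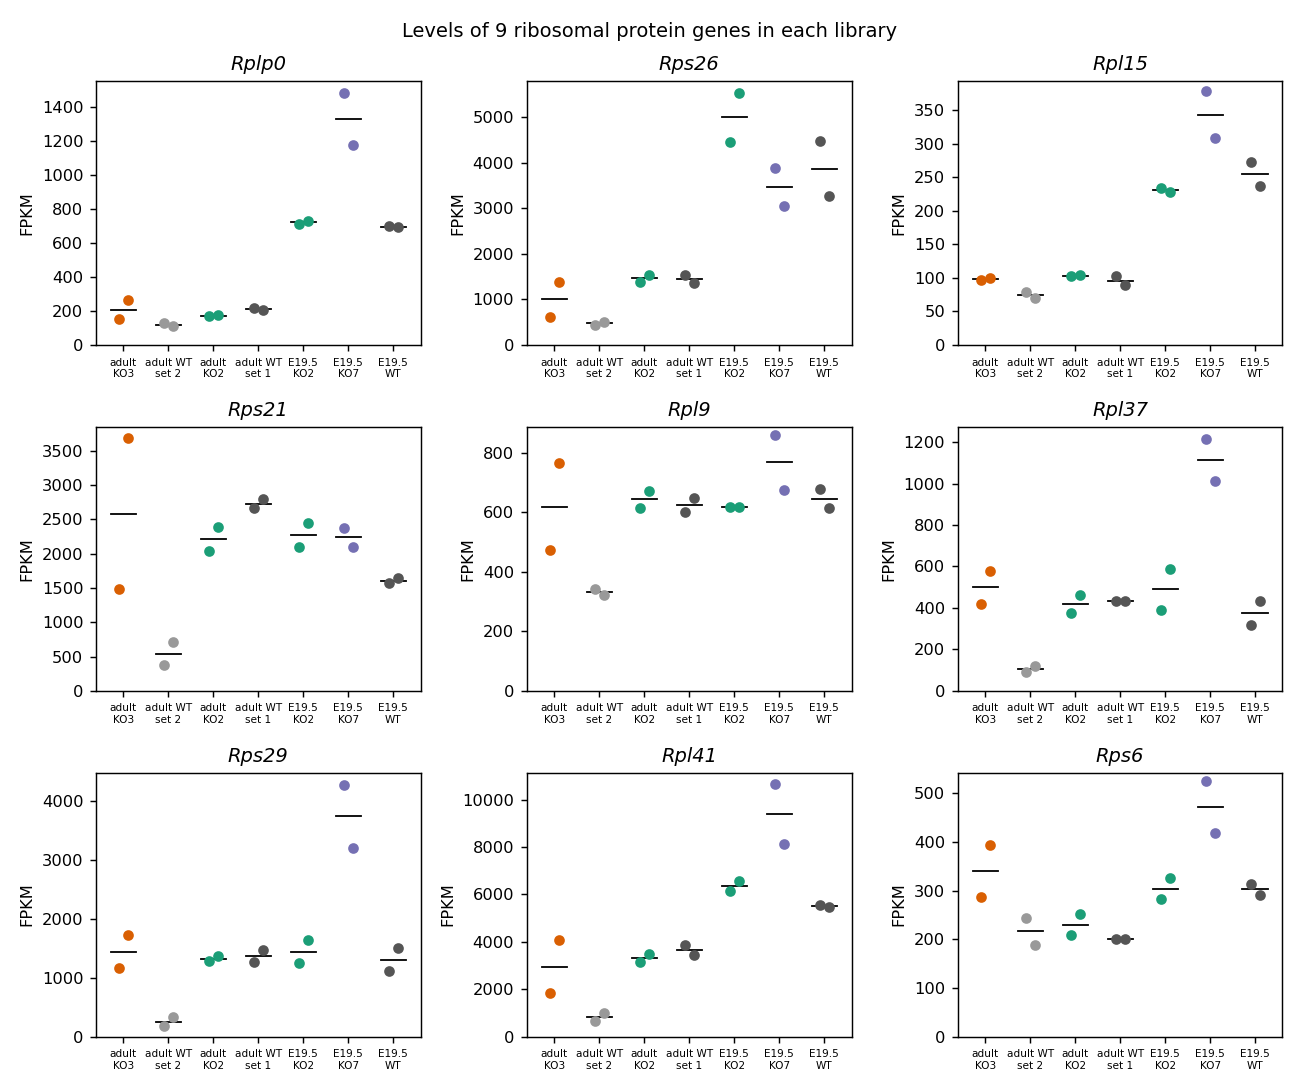
FPKM (vertical axis, linear, from 0) of 9 ribosomal protein genes in each library, with a line at the mean of 2 libraries per group. Rplp0, Rps26 and Rpl15 are high at E19.5, Rpl9 overlaps between stages in KO2 and in wild type with set 1, Rpl37 and Rps29 are highest in KO7, and the adult KO3 points are farther apart for Rps21 and Rpl41 than for Rpl15.

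In adult brain, no difference between KO2 and wild-type set 1 was detectable. Of 77 members 0 were called in limma, at the adjusted threshold and at an unadjusted p under 0.05, where 0.105% of all tested genes were higher and 0.0489% lower, 0.154% in all. The median change was 0.04, as for all tested genes (-0.01 for both under median-of-ratios scaling), and single members ranged from -0.49 (Rpl39) to 0.61 (Rps27l). The summed level of the members was 45543 ± 2394 FPKM in adult KO2 and 45583 ± 1521 FPKM in set 1 (SD, n = 2 each). Erythroid markers summed to 822 and 851 FPKM in adult KO2 and to 83.5 and 484 FPKM in set 1. All 7 tested lay above 0, with a median of 1.84 and 0 called.

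Adult KO3 brain had higher ribosomal protein levels than wild-type set 2. Of 77 members 62 were higher and 0 lower in limma, 37 of the large and 25 of the small subunit, where 13.9% of all tested genes were higher and 8.2% lower, 22.1% in all. The median change was 1.11, against 0.00 for all tested genes, and libraries did not overlap, KO3 above set 2, in 72 members, against 29.2% of all tested genes. The largest rise was that of Rps29, with 1162 and 1729 FPKM in KO3 and 172 and 337 FPKM in set 2 (log2 change 2.55 ± 0.34, limma adjusted p = 0.00694). Rpl37 had 419.9 and 577 FPKM in KO3 and 91.3 and 119.6 FPKM in set 2 (log2 change 2.23 ± 0.26, limma adjusted p = 0.00573). The next 8 were Rps21 (2.18), Rpl39 (2.12), Rps28 (2.09), Rpl38 (1.79), Rps27l (1.76), Rpl41 (1.75), Rpl35a (1.62) and Rps20 (1.61).

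The wild-type sets, with no deletion in either, also differed in these genes. Of 77 members 48 were lower in set 2 than in set 1 and 0 higher (limma), where 14% of all tested genes were lower and 6.84% higher, 20.9% in all. The median change was -0.91, against -0.06 for all tested genes, and set 2 lay below set 1 without overlap in 74 members, against 37.8% of all tested genes. Rpl39, a protein of the exit tunnel, fell most, with 139 and 164 FPKM in set 2 and 905 and 1058 FPKM in set 1 (log2 change -2.68 ± 0.47, limma adjusted p = 0.0028). Among members past the threshold, the others of the 10 largest falls were Rps29 (-2.49), Rps21 (-2.41), Rpl36 (-2.40), Rpl41 (-2.17), Rpl37 (-2.04), Rpl37a (-1.91), Rplp2 (-1.81), Rplp1 (-1.76) and Rps26 (-1.61). This comparison and that of KO3 share the set 2 libraries, so their values are given side by side only. Leaving out 1 library of the sets gave 16 to 21 members lower: 16 without set 2 replicate 1 or set 1 replicate 1, 21 without set 2 replicate 2 and 20 without set 1 replicate 2.

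Against set 1, an alternative added after the data were seen, KO3 differed in few members: Rpl24 (log2 change 0.99), Rpl13a (0.81), Rps6 (0.74) and Rps18 (0.70) were higher and Rpl36 (-1.46) lower, where 12.1% of all tested genes were higher and 17.7% lower (limma). The median change was then 0.20, and 12 of the 62 members changed direction, among them, of the 10 largest rises, Rpl41 (-0.41), Rpl39 (-0.56) and Rps21 (-0.22). The KO3 libraries also lay on different sides of set 1. KO3 replicate 1 was below both set 1 libraries in 50 members and above both in 18, while replicate 2 was above both in 66. Rpl24, a protein of the bridge between subunits, had 358 and 538 FPKM in KO3, 177 and 182 FPKM in set 2 and 224 and 217 FPKM in set 1, so both KO3 libraries exceeded both sets.

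The KO3 count rested on the libraries in the fit. With only the KO3 and set 2 libraries fitted, 0 members were called. Without set 2 replicate 1 there were 0, without set 2 replicate 2 20 and without KO3 replicate 2 20 higher and 1 lower. Without KO3 replicate 1 there were 75 higher and 1 lower, and all 62 stayed called. With both wild-type sets pooled, 7 members were higher. Scaled to equal sums, 55 members were higher, while of all tested genes 772 were higher and 4805 lower, against 1990 and 1174 as deposited, and the medians were 0.69 for the members and -0.34 for all genes. Under quantile scaling 36 members were higher and 6 of the 62 changed direction, with 1609 of all tested genes higher and 1808 lower.

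Between set 2 and set 1, the split of all tested genes also turned with scaling. As deposited 980 were higher and 2010 lower in set 2, scaled to equal sums 2527 and 1195, and under quantile scaling 1631 and 1470. The members were lower in set 2 under both, with 41 and 37 called lower and 1 higher in each. Scaled to equal sums, their median was -0.58 and that of all genes 0.22.

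Mitochondrial ribosome genes moved with the cytosolic ones in the KO3 comparison: 55 of 76 were higher and 0 lower, with a median of 0.72. Of all tested genes, 13.9% were higher and 8.2% lower in that comparison. Of the 35 initiation factor genes 15 were higher and 0 lower, and of the 42 biogenesis genes 15 were higher and 1 lower. In set 2 against set 1, 14 of the 76 mitochondrial ribosome genes were lower and 1 higher, and of the 35 initiation factor genes 0 were lower and 3 higher. The shares over all tested genes there were 14% lower and 6.84% higher. Erythroid markers summed to 1120.3 and 1241 FPKM in KO3 and to 181 and 115 FPKM in set 2, with 3 of 7 tested higher and Slc4a1 listed at 0 in all 4 libraries. Their part in the result was not tested. How the libraries were handled and how the animals differed cannot be told apart within these comparisons.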

How the data were processed

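The deposited table gives FPKM per gene for 14 mouse brain poly(A) RNA-seq libraries, 7 groups of 2. Per the submitters' processing notes the authors used CASAVA, TopHat2 2.1.1, Cufflinks 2.2.1 and build mm9, with no role or order stated. For annotation, strand and filters, nothing is given in the sources used here. In the 10 libraries outside adult KO3 and set 2, the low FPKM values lie on no whole-read steps. The KO3 and set 2 libraries were not examined for such steps. Depth is thus unknown and no count test was run. Genes at 1 FPKM or more numbered 12701 to 13398 per library, and replicates had a Pearson r across genes of 0.964 to 0.983. The 2 rows that name no gene were left out.

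Values were taken to log2(FPKM + 1), which understates changes of low genes, and 14322 genes with at least 1 FPKM in 2 or more libraries were fitted with limma 3.58.1 (R 4.3.3; 7 groups, mean-variance trend, two-sided, Benjamini-Hochberg over all tested genes, threshold 0.05). The method was tested on simulated data. Shares are of summed FPKM without microRNA and small nucleolar RNA genes. Every member was counted. Named are members past the threshold (with over 20, the 10 largest changes each way), the 5 highest and 5 lowest in level, near-copy paralogs, the extremes of other lists and members whose sequence is printed; others were named after their values were seen. A few items meeting this rule are not reported here. Members and lists were chosen with earlier results of these data known. Start sequences are RefSeq's on GRCm38.p6, matched by symbol, whereas the FPKM values rest on mm9. Alternatives covered pseudocount, filter, scaling, libraries in the fit, pooled sets and the replicate block.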

Additional observations from a re-analysis of the deposited data

How the results depend on the processing

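With 2 libraries a group and unknown depth, small changes were not detectable. Members called in KO7 against wild type numbered 1 with no filter, 1 under median-of-ratios scaling, 0 with the wild-type sets pooled, 20 without the 4 KO3 and set 2 libraries, and 0 to 20 with 1 library left out. In KO2 against wild type at E19.5, 1 was called without the 4 libraries. For KO3 against set 2 the number was 36 under quantile scaling, 7 with pooled sets, 0 with only the groups compared in the fit, 5 against set 1 and 0 to 76 with 1 library left out. Against set 1, 12 of the 62 members reversed, including, of the 10 largest rises, Rpl41 (-0.41), Rpl39 (-0.56) and Rps21 (-0.22); under quantile scaling 6 of the 62 did. For the stage comparisons, wild type gave 24 and KO2 29 under median-of-ratios scaling, KO2 gave 16 with pooled sets, and leaving out 1 library gave 17 to 54 in wild type and 15 to 58 in KO2. Set 2 against set 1 gave 16 to 65 with 1 library left out, and pooling the sets leaves no such comparison. The cause of these shifts was not tested. Comparing KO3 with set 1, leaving out the 4 libraries, and leaving adult KO3 replicate 2 out of every fit were chosen after seeing the data.

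Whether same-numbered libraries are paired is not known. Their deviations correlated at -0.163 to 0.233 over the comparisons, which with 2 libraries a group cannot settle it. With the replicate number as a block, 61 members were called for KO3, 2 for KO7, 40 and 39 for stage in wild type and KO2, and 42 for set 2 against set 1.

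With all listed genes in the sum, the members' mean share was 3.67% in adult KO3, 2.78% in set 2, 1.55% in adult KO2, 5.58% in set 1, 1.32% in E19.5 KO2, 13.1% in KO7 and 7.16% in E19.5 wild type. E19.5 KO2 then lay below every adult group, while KO7 and E19.5 wild type stayed above them. With microRNA and small nucleolar RNA genes left out, and without members that have a near copy by symbol, the mean share was 9.95% in adult KO2, 9.93% in set 1, 14.7% in E19.5 KO2 and 13.9% in E19.5 wild type. Of the values of single named members, 530 kept direction and side of the threshold, 82 kept direction only and 3 reversed.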
